A study of Mus musculus with 14 samples.

Results

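The comparison sets bone marrow of mice given CBLB502 against bone marrow of mice given the vehicle, phosphate-buffered saline (PBS), and covers 6 of the 14 microRNA (miRNA) arrays of the study. All animals were male C57BL/6 mice aged 6 to 8 weeks, and each array held the pooled bone marrow RNA of 3 mice. The 2 CBLB502 arrays came from mice injected into the abdomen (i.p.) with 0.2 mg/kg 0.5 h before 0 or 8 Gy of gamma radiation. The 4 vehicle arrays were PBS i.p. and PBS given into the stomach (i.g.), each at 0 and at 8 Gy, and marrow was taken 12 h after irradiation in every group. These 6 were chosen because they hold the drug and its vehicle at both doses, and all of them lay on 1 slide. Dose entered the comparison as a covariate, and the i.g. route had no CBLB502 counterpart. With 1 pool of 3 mice per combination of drug, route and dose, no spread between like pools could be measured. The p-values rest on differences between the PBS i.p. and i.g. pools, which mix route with pool. Over both doses they also rest on how unequal the drug difference was at 0 and at 8 Gy.

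CBLB502, also called entolimod, is a derivative of bacterial flagellin studied as a protector against radiation injury. It activates Toll-like receptor 5, which signals through MyD88 to NF-kB. miRNAs are short RNAs that pair through their seed, the bases near the 5′ end, with messenger RNAs and lower their output. In bone marrow several are tied to lineages: miR-223 to granulocytes, miR-451a and miR-144 to red cell precursors, miR-150 to mature lymphocytes, and the miR-10 and miR-196 genes of the Hox clusters to stem and progenitor cells. In whole marrow, fewer cells of a type and less RNA per cell cannot be told apart.

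The miRNAs on which the results turn are given here as mature sequences from RefSeq (build GRCm38.p6), 5′ to 3′, with the seed (bases 2 to 8) in capitals. A mature sequence matched 278 of the 359 miRNAs tested, and the array probe lay within it for 277 of them. The first are miR-223-3p (chrX:96242884-96242905, plus strand) and 3 members of 1 cluster on chromosome 8 (chr8:84208563-84208896, plus strand). With them stands miR-27b-3p of chromosome 13, which shares the seed of miR-27a-3p. The chromosome 13 cluster also encodes miR-24-3p, so that the level of miR-24-3p cannot be assigned to 1 cluster.
miR-223-3p: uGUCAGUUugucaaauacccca
miR-23a-3p: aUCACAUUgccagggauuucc
miR-27a-3p: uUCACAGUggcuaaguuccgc
miR-24-3p: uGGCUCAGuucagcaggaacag
miR-27b-3p: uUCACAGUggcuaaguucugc

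A further 3 pairs of miRNAs share a seed and were lower as pairs: miR-10a-5p (chr11:96317186-96317208, plus strand) and miR-10b-5p (chr2:74726074-74726096, plus strand), miR-26a-5p and miR-26b-5p, and miR-103-3p and miR-107-3p.
miR-10a-5p: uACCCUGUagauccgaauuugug
miR-10b-5p: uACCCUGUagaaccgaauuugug
miR-26a-5p: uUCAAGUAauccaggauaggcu
miR-26b-5p: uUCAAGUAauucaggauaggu
miR-103-3p: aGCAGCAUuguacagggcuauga
miR-107-3p: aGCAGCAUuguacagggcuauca

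Among the higher miRNAs were miR-494-3p (chr12:109715367-109715388, plus strand) and a set whose sequences hold runs of alternating A and C.
miR-494-3p: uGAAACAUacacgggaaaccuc
miR-467f: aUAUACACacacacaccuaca
miR-466q: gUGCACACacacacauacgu
miR-466i-3p: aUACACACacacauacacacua

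Levels are the log2 of the background-subtracted intensity after division by the 75th percentile of each array, with low values raised to a floor of -5.25. Between 332 and 370 of 1247 miRNAs were detected on each of the 6 arrays, outlier spots made up 4.42 to 5.27% of spots, and no spot was saturated. The array number limits the precision. Both CBLB502 arrays and 2 PBS arrays lay in row 2 of the slide, and the other 2 PBS arrays in row 1.

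Over both doses, 107 of 359 tested miRNAs (29.8%) passed an adjusted p of 0.05 (limma with Benjamini-Hochberg adjustment). Of all tested, 60 (16.7%) were higher and 47 (13.1%) were lower with CBLB502, with adjusted p from 0.0219 to 0.0488. The median difference of all tested miRNAs was 0.12, with 195 above 0 and 160 below. These values and the shares called are the background against which the groups below are read. Both CBLB502 arrays lay above all 4 vehicle arrays for 88 miRNAs (24.5%) and below all of them for 63 (17.5%). Among the 107 that passed, 89 showed such separation. Differences were mostly below 2-fold, and 11 of the 107 reached a log2 difference of 1.

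The division into higher and lower depended on the scaling. With the 75th percentile taken over all miRNAs on the array, 14 were higher and 92 lower, and with quantile normalization 15 were higher and 59 lower. The median of all tested miRNAs then stood at -0.06 and -0.01. Under all 3 scalings 54 of the 107 passed, 11 higher and 43 lower, among them miR-223-3p, miR-10a-5p and the miR-23a, miR-27a and miR-24 trio, while of the higher miRNAs with A and C runs miR-466g was the 1 that did.

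The calls rested on nearly every one of the arrays. Leaving out PBS i.g. at 8 Gy left 62 calls. Leaving out PBS i.p. at 0 Gy, PBS i.g. at 0 Gy, PBS i.p. at 8 Gy, or either CBLB502 array left 0, with 114 to 173 at an unadjusted p below 0.05 in limma. When the other 4 bone marrow arrays were added to the fit, 45 of 371 tested (12.1%) passed, and 43 of these were among the 107. With PBS i.p. alone as the vehicle, 32 (8.91%) passed, 28 of them among the 107. PBS i.g. stayed in that fit as an arm of its own, so it still entered the dose term and the spread. With the row of the slide as a further term, a check chosen after seeing the data, 0 passed and 123 had an unadjusted p below 0.05. Row 2 holds 1 PBS array of the dose of each CBLB502 array, PBS i.g. at 0 Gy and PBS i.p. at 8 Gy. The comparison at 0 Gy within this row therefore mixes drug with route. Within row 2 miR-223-3p differed by -1.07 at 0 Gy and -0.80 at 8 Gy, miR-10a-5p by -1.21 and -0.47, and miR-494-3p by 0.69 and 2.14. These arrays are also part of the 6-array fit.

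miR-223-3p, the miRNA most closely tied to granulocytes and a brake on their production and activation, gave the lowest difference of those that passed. Without irradiation its log2 level was 5.94 and 5.89 on the PBS i.p. and i.g. arrays and 4.83 on the CBLB502 array. After 8 Gy it was 6.34, 6.28 and 5.54 in the same order. Both CBLB502 arrays lay below every vehicle array, and the vehicle arrays of 1 dose differed by far less than they differed from CBLB502. miR-223-3p fell by 0.93 ± 0.11 (log2 difference ± SE, 1.91-fold, limma adjusted p 0.0219). It also passed on 10 arrays (0.0277) and against PBS i.p. alone (0.0492).

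The miR-23a cluster, whose miRNAs are known to favour myeloid over B lymphoid output from progenitors, moved in the same direction. miR-23a-3p stood at 2.07 and 2.08 on the PBS arrays and 1.34 on the CBLB502 array at 0 Gy, and at 2.29, 2.17 and 1.62 at 8 Gy. miR-27a-3p stood at 0.98, 1.14 and 0.20 at 0 Gy and at 1.26, 0.99 and 0.50 at 8 Gy. miR-24-3p stood at 1.20, 1.23 and 0.60 at 0 Gy and at 1.34, 1.16 and 0.53 at 8 Gy. For all 3 both CBLB502 arrays were below all 4 vehicle arrays. miR-23a-3p fell by 0.67 ± 0.09 (adjusted p 0.0231), miR-27a-3p by 0.74 ± 0.13 (0.0333) and miR-24-3p by 0.67 ± 0.09 (0.0269). All 3 passed on 10 arrays too, and against PBS i.p. alone miR-23a-3p and miR-24-3p passed while miR-27a-3p did not (0.0609).

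The paralog cluster of chromosome 13, which also encodes miR-24-3p, was lower too. miR-27b-3p fell by 0.46 ± 0.10 (adjusted p 0.0398) and miR-23b-3p by 0.47 ± 0.09 (0.0354), and neither passed on 10 arrays (0.0512 and 0.0565). miR-24-2-5p, the passenger arm, was detected on 3 of 4 vehicle arrays and on neither CBLB502 array, where its values lie at the floor. Its vehicle mean lay at least 1.48-fold above that floor, and the difference did not pass (0.0535). In all, 5 of the 6 tested miRNAs of the miR-23/27/24 clusters passed, all lower, beside 13.1% of all tested called lower. Their median difference was -0.62, beside 0.12 for all tested. That median includes miR-24-2-5p, which was tested through detection on vehicle arrays alone. On 10 arrays, where miR-24-2-5p was not tested, 3 of 5 passed, with a median of -0.68. The other 5 arms of the clusters, all 5p, were not tested because too few arrays detected them.

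Of the 8 tested myeloid miRNAs, 4 passed, all lower, and all 8 lay below 0 with a median of -0.53. The 4 are miR-223-3p and the miR-23a, miR-27a and miR-24 trio described above. The other members give a mixed picture: miR-142-3p, found in all blood cells, differed by -0.06 ± 0.24 (adjusted p 0.836) and miR-142-5p by -0.39 ± 0.25 (0.257). miR-21a-5p, raised in activated myeloid cells, differed by -0.10 ± 0.11 (0.479) and miR-125a-5p by -0.33 ± 0.11 (0.0767). For miR-142-3p the CBLB502 levels of 2.80 and 2.94 lay inside the vehicle range of 2.58 to 3.28.

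**Figure D1:**
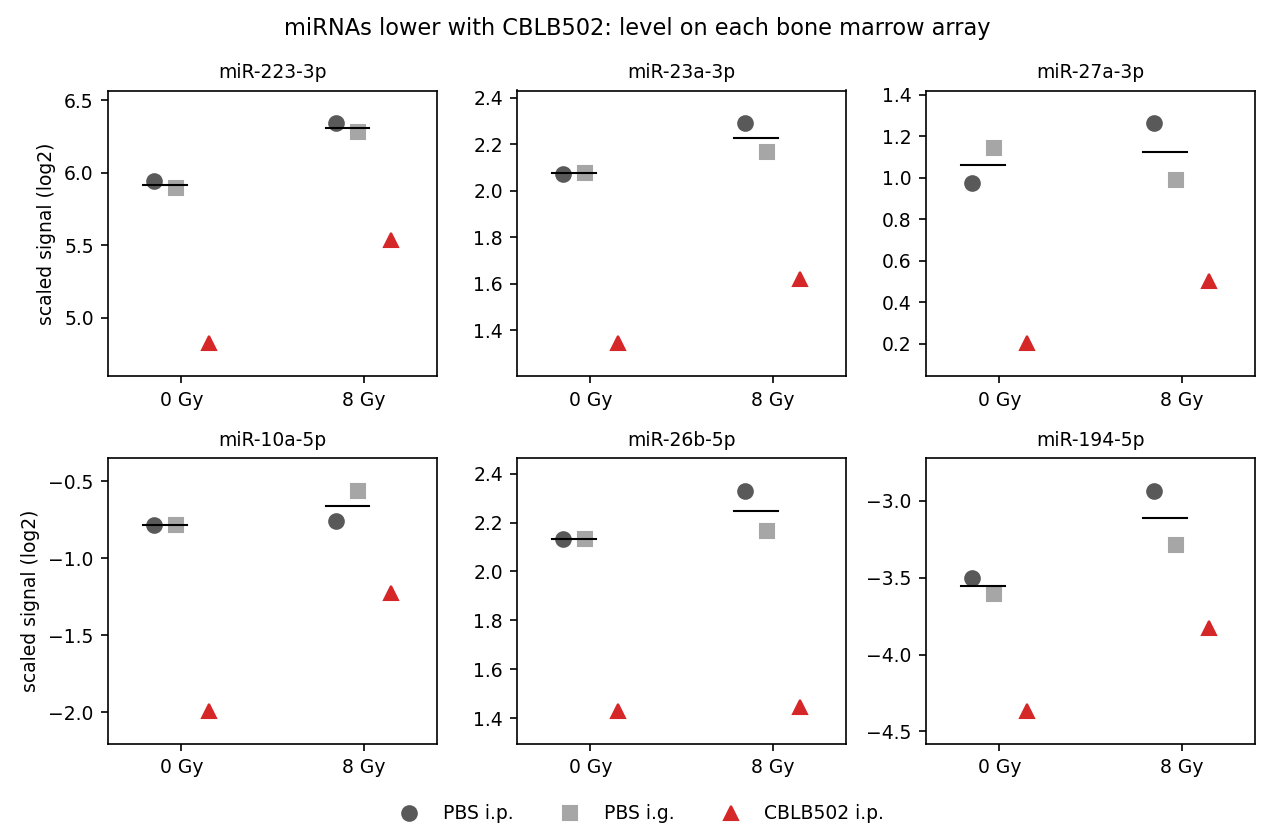
Log2 scaled signal of 6 miRNAs that were lower with CBLB502, on each of the 6 bone marrow arrays by dose; circles are PBS i.p., squares PBS i.g., triangles CBLB502 i.p., and bars the mean of the PBS pair. Both CBLB502 arrays lie below all 4 PBS arrays in every panel, for miR-223-3p at 4.83 and 5.54 against 5.89 to 6.34.

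The Hox cluster miRNAs were lower as well. miR-10a-5p, which is expressed in stem and progenitor cells and lies in the Hoxb cluster, stood at -0.79 on both PBS arrays and at -1.99 with CBLB502 at 0 Gy. At 8 Gy it stood at -0.76 and -0.56 on the PBS i.p. and i.g. arrays and at -1.23 with CBLB502. The groups did not overlap, and the CBLB502 array at 0 Gy was the lowest of the 6. miR-10a-5p fell by 0.89 ± 0.17 (1.85-fold, adjusted p 0.0354), passed on 10 arrays (0.0445) and did not pass against PBS i.p. alone (0.0739).

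miR-10b-5p, the paralog in the Hoxd cluster with the same seed, stood at -3.78, -3.93 and -4.86 at 0 Gy and at -3.82, -3.68 and -4.14 at 8 Gy, in the order PBS i.p., PBS i.g. and CBLB502. It fell by 0.70 ± 0.17 (adjusted p 0.0413; 0.0503 on 10 arrays). miR-196b-5p of the Hoxa cluster fell by 0.47 ± 0.11 (0.0406; 0.145 on 10 arrays), and its groups overlapped, since its PBS levels were lower at 8 Gy (-4.35 and -4.43) than at 0 Gy (-3.54 and -3.78). All 3 tested Hox miRNAs passed in the 6-array fit, with a median of -0.70, beside 13.1% of all tested called lower. miR-10a-5p alone of them passed on 10 arrays, and it alone passed once the trend of each array with the GC content of its probes was removed (0.0564 for miR-10b-5p and 0.0839 for miR-196b-5p). The other 4 of the list, miR-10a-3p, miR-10b-3p, miR-196a-5p and miR-615-3p, were detected on none of the 6 arrays.

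Among 14 tested progenitor miRNAs, 13 lay below 0 and 4 passed, all lower: the 3 Hox miRNAs and miR-221-3p, which restrains Kit in progenitors and fell by 0.43 ± 0.10 (adjusted p 0.0406; 0.0512 on 10 arrays). The share that passed is close to the 29.8% of all tested, and the list's median was -0.31. On 10 arrays, and with the GC trend removed, miR-10a-5p was the 1 member that passed. The miR-99, miR-100, let-7e and miR-125 genes are high in stem cells and lie in separate clusters on different chromosomes. They gave -0.40 ± 0.13 for miR-99a-5p (0.0674), -0.31 ± 0.18 for miR-100-5p (0.233), -0.26 ± 0.15 for let-7e-5p (0.226) and -0.30 ± 0.14 for miR-125b-5p (0.141). miR-222-3p, the neighbour of miR-221, gave -0.27 ± 0.18 (0.271) and miR-130a-3p -0.27 ± 0.09 (0.0783). miR-126-3p, of stem cells and endothelium, gave -0.23 ± 0.22 (0.409). miR-126-5p was detected on all 4 vehicle arrays and on neither CBLB502 array, and its difference did not pass (0.299).

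Of 9 tested miRNAs linked to Toll-like receptor and NF-kB signalling, 3 passed, all lower: miR-223-3p, miR-221-3p and miR-146b-5p. That share is close to the 29.8% of all tested, and the list's median was -0.29. miR-146b-5p, which targets the adaptors IRAK1 and TRAF6 as miR-146a does, stood at -2.04, -1.98 and -2.61 at 0 Gy and at -1.59, -1.77 and -2.10 at 8 Gy. It fell by 0.51 ± 0.10 (adjusted p 0.0354), passed on 10 arrays (0.0445) and did not pass with the GC trend removed (0.138).

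The 2 miRNAs best known as NF-kB targets did not pass. miR-155-5p stood at -2.0, -2.36 and -1.57 at 0 Gy and at -2.39, -2.65 and -2.39 at 8 Gy. It was highest on the unirradiated CBLB502 array, and the irradiated one lay inside the vehicle range. Its difference was 0.37 ± 0.18 (adjusted p 0.170). miR-146a-5p stood at -0.76, -1.03 and -0.73 at 0 Gy and at -0.99, -1.34 and -0.99 at 8 Gy, a difference of 0.17 ± 0.14 (0.374). miR-146a-5p and miR-146b-5p share their seed, and whether their differences are unequal was not tested. miR-199a-3p gave -0.22 ± 0.18 (0.356), miR-210-3p -0.29 ± 0.12 (0.131), and miR-132-3p, miR-147-3p and miR-9-5p were detected on none of the 6 arrays.

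**Figure D2:**
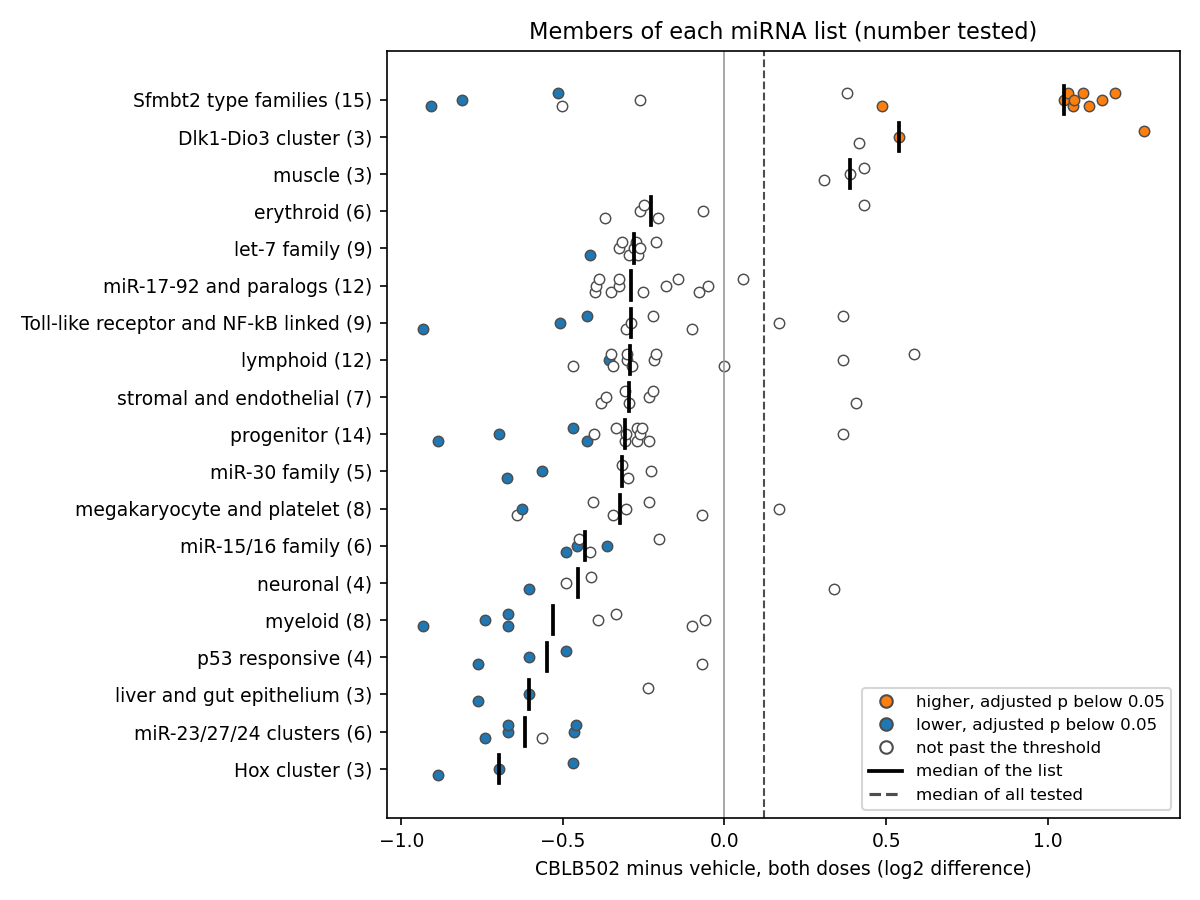
Log2 difference of CBLB502 minus vehicle over both doses for each tested member of 19 miRNA lists, with the number tested in brackets; filled points passed an adjusted p of 0.05, black bars are list medians and the dashed line is the median of all tested miRNAs, 0.12. The Hox, miR-23/27/24 and myeloid lists have medians of -0.70, -0.62 and -0.53, and the Sfmbt2 type families one of 1.05.

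Other lineage lists had few calls. None of 6 erythroid miRNAs passed (adjusted p from 0.130 to 0.695), with miR-144-3p highest at 0.43 ± 0.45 and miR-144-5p lowest at -0.37 ± 0.16. miR-451a, the erythroid miRNA processed without Dicer, gave -0.26 ± 0.15 (0.224), with levels of 6.57 to 8.11 over the 6 arrays. Of 12 lymphoid miRNAs miR-29c-3p passed, which fell by 0.36 ± 0.08, with miR-150-3p highest at 0.59 ± 0.28, 5 of its 6 values being at the floor, and miR-181c-5p lowest at -0.47 ± 0.13. miR-150-5p, the best known of them, gave -0.34 ± 0.22 (0.255). Of 8 megakaryocyte and platelet miRNAs miR-148a-3p passed as lower, miR-146a-5p was highest at 0.17 and miR-326-3p lowest at -0.64 ± 0.19.

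The families tied to cell growth had medians below that of all tested, and their calls depended on the processing. Among all tested, 13.1% were called lower. The miR-15/16 family had 3 of 6 lower calls, miR-15a-5p at -0.49 ± 0.12, miR-322-5p at -0.46 ± 0.07 and miR-195a-5p at -0.36 ± 0.09, with a median of -0.43. The let-7 family had 1 of 9, let-7g-5p, at -0.42 ± 0.10, with let-7i-5p highest at -0.21 ± 0.14. None of 12 tested miRNAs of the miR-17-92 cluster and its paralogs passed, although 11 lay below 0, and miR-106b-5p was lowest at -0.40 ± 0.14. On 10 arrays, and with the GC trend removed, 0 members of these 3 families passed, and with that trend removed the let-7 median was -0.04 with 5 of 9 below 0. With the 75th percentile over all miRNAs 5 of 6, 6 of 9 and 6 of 12 passed as lower in the miR-15/16, let-7 and miR-17-92 families. The miR-30 family had 2 of 5, miR-30b-5p at -0.67 ± 0.11 and miR-30c-5p at -0.57 ± 0.14.

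Of 4 tested p53-responsive miRNAs, 3 passed, all lower, beside 13.1% of all tested called lower. They were miR-194-5p and miR-192-5p, which are also miRNAs of gut and liver epithelium and are transcribed together, and miR-107-3p. miR-194-5p stood at -3.50, -3.61 and -4.37 at 0 Gy and at -2.94, -3.29 and -3.83 at 8 Gy, in the order PBS i.p., PBS i.g. and CBLB502. It fell by 0.76 ± 0.13 (adjusted p 0.0331) and miR-192-5p by 0.60 ± 0.11 (0.0354), and both passed on 10 arrays and against PBS i.p. alone. With the GC trend removed miR-194-5p passed, and miR-192-5p and miR-107-3p did not. miR-34a-5p, the direct p53 target, stood at -2.10, -2.30 and -2.35 at 0 Gy and at -0.19, -0.35 and -0.26 at 8 Gy, so that the irradiated arrays lay above the others in every group. Its CBLB502 difference was -0.07 ± 0.11 (0.602).

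Markers of other tissues in the marrow samples were as follows. Of 12 liver and gut epithelium miRNAs 3 were tested, and miR-122-5p, which defines hepatocytes, was detected on none of the 6 arrays. The mean level of the 3 ranged from -3.40 to -2.85 on vehicle arrays and from -3.83 to -3.53 on CBLB502 arrays. None of 3 tested muscle miRNAs passed, with mean levels of -4.31 to -3.43 on vehicle and -3.46 to -3.44 on CBLB502 arrays. The 7 stromal and endothelial miRNAs had 0 calls and mean levels of -2.18 to -1.92 on vehicle and -2.37 to -2.09 on CBLB502 arrays. Of 4 tested neuronal miRNAs 1 passed, miR-135a-5p, lower. The part of these tissues in the differences was not tested.

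The remaining lowest differences belonged to miRNAs outside these lists. miR-26b-5p stood at 2.13 on both PBS arrays and 1.43 with CBLB502 at 0 Gy, and at 2.33, 2.17 and 1.45 at 8 Gy. It fell by 0.75 ± 0.09 (adjusted p 0.0219), and miR-26a-5p, which shares its seed and like it lies in an intron of a Ctdsp phosphatase gene, by 0.58 ± 0.11 (0.0354). Both arms of the miR-340 hairpin fell, miR-340-3p by 0.83 ± 0.10 (0.0219) and miR-340-5p by 0.78 ± 0.16 (0.0383). The other named ones were miR-744-5p, which fell by 0.90 ± 0.17, and miR-338-3p, which fell by 0.83 ± 0.17. On 10 arrays miR-26b-5p, both miR-340 arms, miR-744-5p and miR-338-3p passed and miR-26a-5p did not (0.0563), and against PBS i.p. alone miR-26b-5p and miR-340-3p passed of these.

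Of 21 seeds shared by at least 2 tested miRNAs, all members passed as lower for 4, those of miR-10, miR-26, miR-27 and miR-103/107. On 10 arrays none of the 4 pairs kept both calls, with 0.0503 for miR-10b-5p, 0.0563 for miR-26a-5p and miR-103-3p, 0.0512 for miR-27b-3p and 0.0593 for miR-107-3p. miR-103-3p fell by 0.52 ± 0.11 and miR-107-3p by 0.49 ± 0.10, and both genes lie in introns of pantothenate kinase genes. miR-148a-3p and miR-152-3p passed as lower within a family of 3, by 0.63 ± 0.08 and 0.42 ± 0.09. On the X chromosome, miR-450a-5p, miR-503-5p and miR-322-5p of 1 cluster fell by 0.67 ± 0.12, 0.61 ± 0.13 and 0.46 ± 0.07. On 10 arrays miR-152-3p (0.367) and miR-322-5p (0.0512) did not pass. The examples of miR-103 and miR-107, of miR-148a and miR-152 and of the X chromosome were chosen after their values were seen.

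Among the higher miRNAs, miR-494-3p of the imprinted Dlk1-Dio3 region had the highest difference of those that passed. It stood at 6.40, 6.28 and 6.96 at 0 Gy and at 5.62, 5.97 and 7.76 at 8 Gy, in the order PBS i.p., PBS i.g. and CBLB502. The irradiated CBLB502 array was the highest and the irradiated vehicle arrays the lowest, and the groups did not overlap. miR-494-3p rose by 1.30 ± 0.34 (2.46-fold, adjusted p 0.0477), passed on 10 arrays (0.0445) and did not pass against PBS i.p. alone (0.0942). Of the 28 listed miRNAs of the region 3 were tested and 2 passed, beside 16.7% of all tested called higher. The other of the 2 was miR-370-3p, which rose by 0.54 ± 0.12 (0.0403) and did not pass on 10 arrays (0.0939). With quantile or all-miRNA scaling 0 of the 3 passed. miR-134-5p gave 0.42 ± 0.13 (0.0695). The list does not hold every tested miRNA of this part of chromosome 12. miR-432 (chr12:109595006), near miR-370-3p (chr12:109618305), was detected on 3 of 4 vehicle arrays. It rose by 1.08 ± 0.24 (0.0403) and also passed on 10 arrays. Its neighbour miR-433-5p did not pass, nor did miR-770-3p (chr12:109563744), with 0.44 ± 0.15 (0.0802).

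The largest group among the 12 highest were 8 miRNAs of the miR-466, miR-467 and miR-669 families, many copies of which lie in an intron of Sfmbt2. miR-466h-3p stood at -1.21, -1.07 and -0.42 at 0 Gy and at -2.40, -1.86 and -0.52 at 8 Gy, in the same order. miR-467f stood at -1.20, -1.09 and -0.42 at 0 Gy and at -2.39, -1.80 and -0.60 at 8 Gy. In both the irradiated vehicle arrays were lowest and the CBLB502 arrays were close to each other and above all vehicle arrays. miR-466h-3p rose by 1.17 ± 0.27 (2.25-fold, adjusted p 0.0406) and miR-467f by 1.11 ± 0.26 (0.0406).

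The other 6 of the group rose by 1.05 to 1.21, namely miR-466g, miR-466f-3p, miR-466q, miR-669c-3p, miR-466i-3p and miR-669p-3p. On 10 arrays miR-466g, miR-466h-3p, miR-466f-3p and miR-467f passed and the other 4 had adjusted p from 0.0503 to 0.0512, and against PBS i.p. alone none of the 8 passed. miR-466g was detected on 3 of 4 vehicle arrays and lay at the floor on 1. The remaining 3 of the 12 highest were miR-432, miR-3061-5p and miR-295-5p. miR-295-5p, of an embryonic stem cell cluster, was detected on 3 of 4 vehicle arrays and rose by 0.99 ± 0.16 (0.0331), also on 10 arrays and against PBS i.p. alone. miR-3061-5p was detected on 1 of 4 vehicle arrays and on both CBLB502 arrays, and its 3 lowest vehicle values are at the floor.

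**Figure D3:**
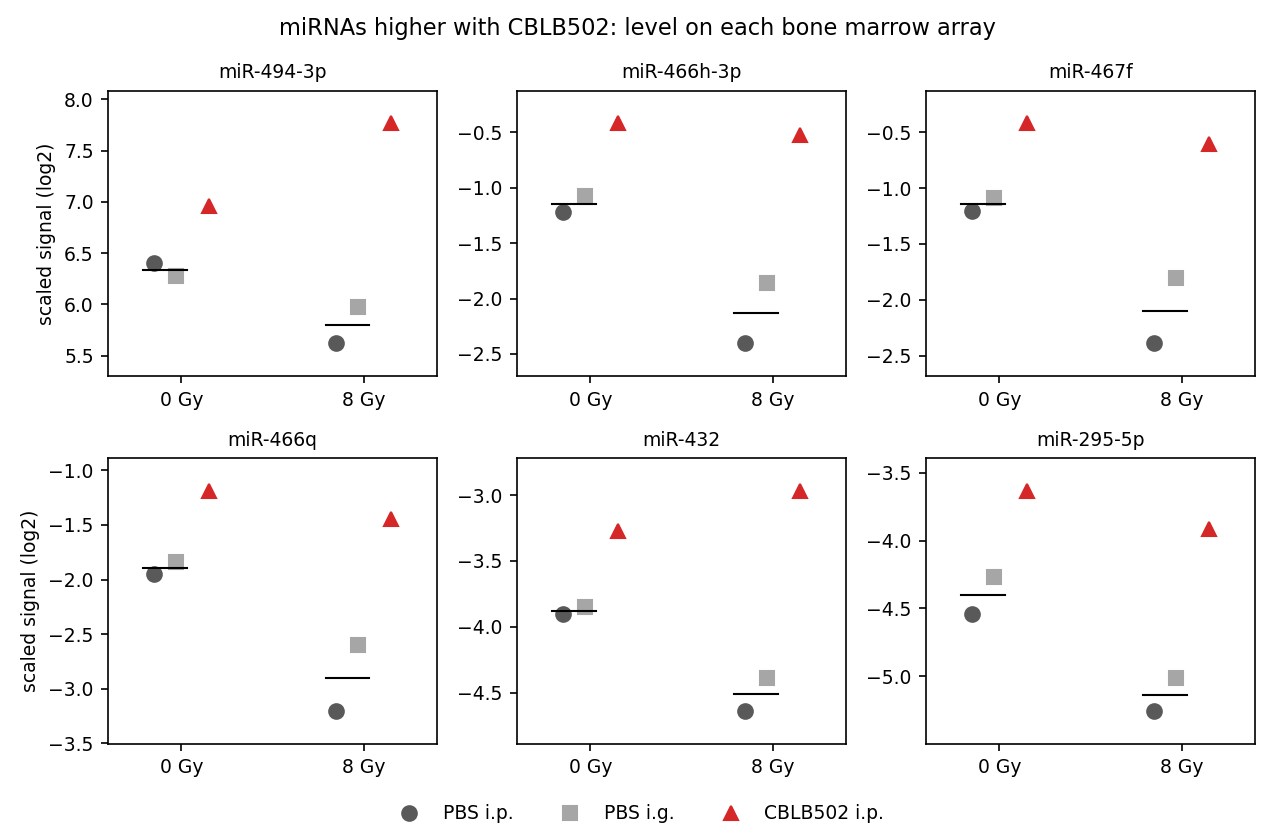
Log2 scaled signal of 6 miRNAs that were higher with CBLB502, on each of the 6 bone marrow arrays by dose; circles are PBS i.p., squares PBS i.g., triangles CBLB502 i.p., and bars the mean of the PBS pair. The PBS arrays are lower at 8 Gy than at 0 Gy in every panel, for miR-466h-3p at -2.40 and -1.86 against -1.21 and -1.07, and both CBLB502 arrays lie above all 4.

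The families did not move as 1 block. Of 15 tested miRNAs of the Sfmbt2 type families, 9 passed as higher and 3 as lower, with a median of 1.05. Among all tested, 16.7% were called higher and 13.1% lower. miR-467b-5p stood at -3.86, -3.83 and -4.75 at 0 Gy and at -4.21, -4.29 and -5.16 at 8 Gy, and it fell by 0.91 ± 0.08 (adjusted p 0.0219). miR-467a-3p fell by 0.81 ± 0.08 (0.0219) and miR-466b-3p by 0.51 ± 0.08 (0.0328), each detected on 1 of the 2 CBLB502 arrays, as was miR-467b-5p. miR-467a-5p was detected on all 4 vehicle arrays and on neither CBLB502 array, where its values lie at the floor. Its vehicle mean lay at least 1.42-fold above that floor (0.0504). Of the 12 highest and lowest differences, those of these families kept their sign under every alternative where they were tested, but in the list 1 was called higher and 4 lower with the 75th percentile over all miRNAs and with quantile normalization.

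The array probes of these families, taken from the scanner files, hold runs of alternating T and G in the higher members and in 2 of the 3 lower ones. They are printed 5′ to 3′ with runs of alternating T and G in capitals, first 3 that were higher, then 3 that were lower.
miR-466h-3p: gTGTGTGTGTGcgt
miR-669c-3p: tttactTGTGTGTGTGTG
miR-467f: tgtaggTGTGTGTGTGT
miR-467a-3p: tgtaggTGTGTGTatgtata
miR-466b-3p: tcttaTGTGTGcgtgta
miR-467b-5p: catatacatgcaggcact

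The letters TGTGTG on the probe strand (overlapping matches counted once) occur in the probes of 12 of the 359 tested miRNAs, which is 3.34%. Of these 12, 9 passed as higher and 2 as lower, with a median of 1.07. Of the other 347, 51 passed as higher and 45 as lower, with a median of 0.11. The higher calls depended on the scaling, and of the 9 miR-466g alone passed under all 3 scalings. Of the 12, miR-574-3p alone is outside the families, with 1.02 ± 0.27 (adjusted p 0.0504). Probes with such runs can bind several of these near-identical RNAs, so that the values of single members are uncertain. For the same 12 miRNAs the median difference from the same vehicle arrays was 1.09 with amifostine and 0.43 with nilestriol, on another slide. These values share the vehicle arrays. The letters were chosen after the values were seen.

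Probe base composition moved with the differences. Across the 359 miRNAs, which are not independent and share arrays and scaling, the Spearman correlation of the difference with probe GC content was 0.435, and with mean level -0.152. Among the 119 miRNAs with the lowest GC content (24.4 to 48.5%) the median was -0.27, with 15 higher and 29 lower calls. Among the 120 between (48.5 to 62.1%) it was 0, with 15 higher and 18 lower. Among the 120 with the highest (62.1 to 100%) it was 0.41, with 30 higher and 0 lower. With the GC trend of each array removed, 70 miRNAs passed, 51 of them among the 107, and 56 of the 107 no longer did. miR-223-3p then gave -0.72, and it, miR-10a-5p, miR-23a-3p, miR-27a-3p, miR-24-3p, miR-494-3p and the 8 highest miRNAs of the Sfmbt2 type families still passed. Those that no longer did include miR-10b-5p, miR-196b-5p, miR-27b-3p (0.0510), miR-221-3p, miR-146b-5p, miR-340-5p (0.0696), let-7g-5p (0.449), miR-192-5p, miR-148a-3p, miR-103-3p and miR-107-3p.

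The 2 arms of 1 hairpin come from 1 transcript and can be set side by side. Some mature arms, such as miR-24-3p, miR-199a-3p and miR-30c-5p, come from more than 1 hairpin, so their level is not that of 1 transcript. Among the pairs, miR-30c-5p stands beside the other arm of each of its hairpins. Of 32 pairs of arms tested, 31 differed in probe GC content, and the arm with more GC had the higher difference in 21. In 2 hairpins the arms passed in opposite directions. miR-139-5p fell by 0.66 ± 0.13 (adjusted p 0.0354, probe GC 60.4%) and miR-139-3p rose by 0.74 ± 0.12 (0.0328, 70.3%). miR-135a-5p fell by 0.60 ± 0.15 (0.0457, 31.1%) and miR-135a-1-3p rose by 0.75 ± 0.12 (0.0330, 80.5%). With the GC trend removed neither arm of miR-135a passed. The name miR-135a-1-3p holds a gene number and miR-135a-5p does not, so this pair may also draw on more than 1 hairpin. In 1 hairpin, miR-340, both arms passed as lower. Whether called or not, the 2 arms had opposite signs in 14 of the 32 pairs. The hairpins were chosen after their values were seen, and the part of base composition in these differences was not tested.

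**Figure D4:**
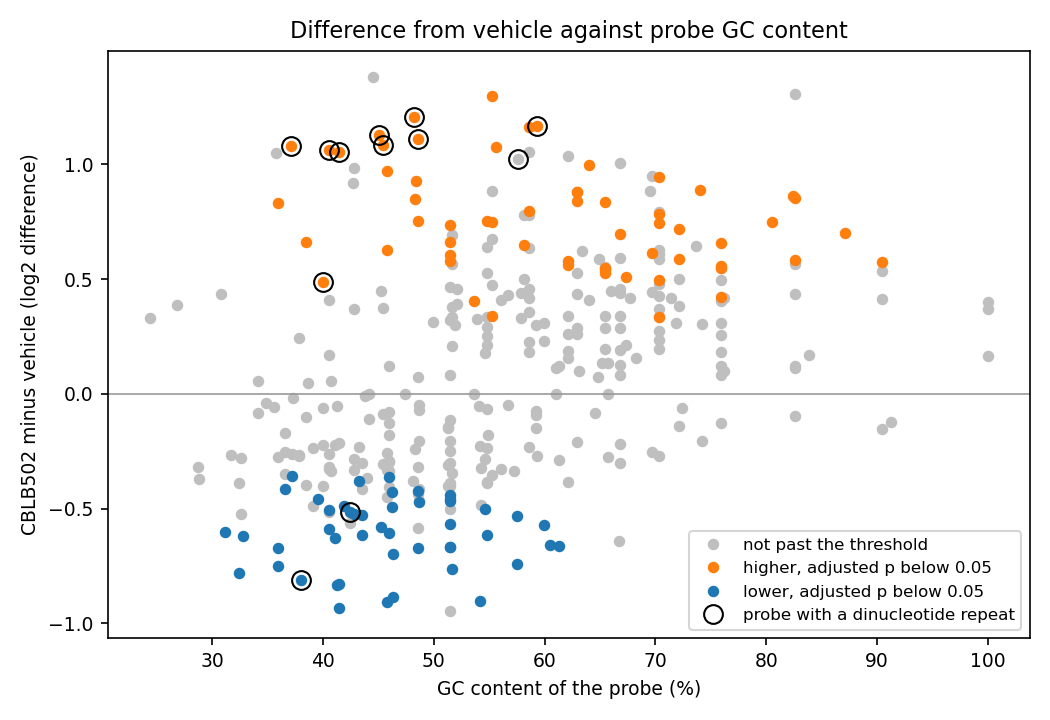
Log2 difference of CBLB502 minus vehicle over both doses against the mean GC content of the array probes, for 359 miRNAs; orange points passed as higher, blue as lower, grey did not pass, and rings mark 12 miRNAs whose probes hold the repeat. Among the 120 miRNAs with the highest GC content, from 62.1%, 0 passed as lower and 30 as higher.

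At each dose alone the contrast rests on 1 CBLB502 array, assumed to vary like the PBS pairs, whose members differ in route. At 0 Gy 0 miRNAs (0%) passed, with 113 at an unadjusted p below 0.05 in limma and a lowest adjusted p of 0.0791. At 8 Gy 0 (0%) passed, with 114 unadjusted and a lowest adjusted p of 0.0607. The difference between doses was passed by 0 (0%), with 34 unadjusted and a lowest adjusted p of 0.453. The differences at 0 and 8 Gy, which use separate arrays, had the same sign for 307 of 359 tested miRNAs. A difference of 0 at both doses counts there as the same sign, although it has no direction. For 343 miRNAs the difference was other than 0 at both doses. The 107 were called on both doses together, so that their signs at each dose are not independent of the call.

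The smallest p at 0 Gy belonged to miR-223-3p, at -1.09 ± 0.09 (unadjusted p 0.000873), followed by miR-696, miR-467b-5p and miR-682. At 8 Gy miR-3061-5p, miR-150-3p, miR-682 and miR-450a-2-3p had the smallest, each with an adjusted p of 0.0607. For miR-3061-5p, miR-150-3p, miR-682 and miR-696 most or all vehicle values lie at the floor, which fixes their spread near 0. Their p-values and SEs therefore carry little, also for the miR-150-3p value given above, and no log2 difference is given here. miR-682 is among the 107 with all 4 vehicle values at the floor, although 2 vehicle arrays detected it. Its CBLB502 mean lay at least 1.90-fold above that floor. miR-450a-2-3p was measured on every array, at -2.37, -2.20 and -1.90 at 0 Gy and at -2.99, -2.63 and -0.44 at 8 Gy. It differed between doses by 1.99 ± 0.30 (unadjusted p 0.00629, adjusted 0.453), which did not pass. The other 3 smallest p of the difference between doses belonged to miR-150-3p, miR-3061-5p and miR-696, at the same adjusted p.

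**Figure D5:**
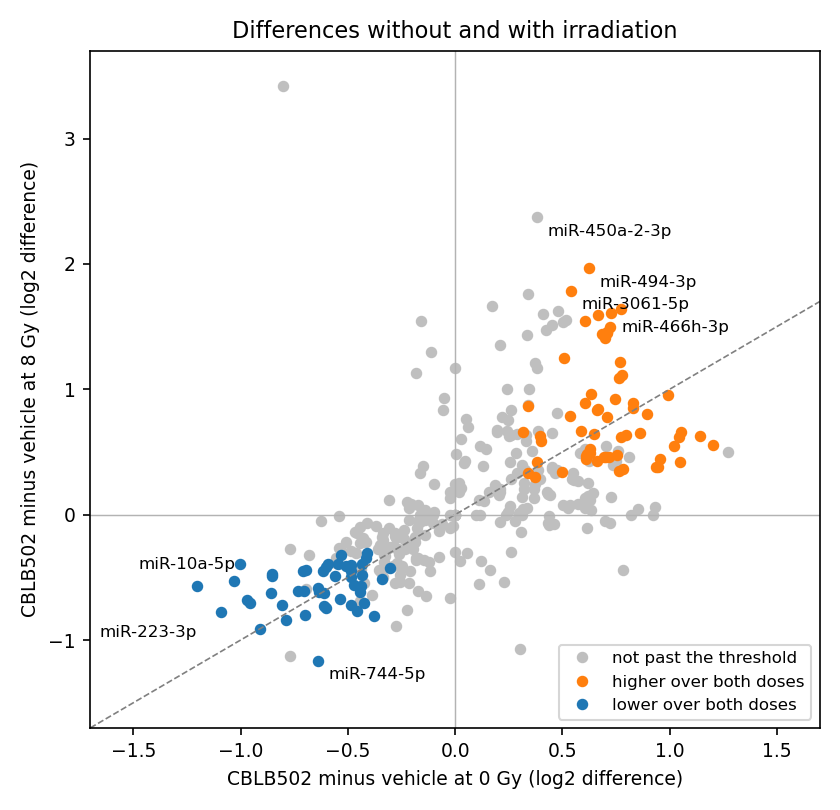
Log2 difference of CBLB502 from the PBS pair at 0 Gy (horizontal) and at 8 Gy (vertical) for 359 miRNAs, with the dashed line marking equal differences; orange points passed as higher and blue as lower over both doses. The signs are equal for 307 of the 359, counting differences of 0 at both doses as equal. miR-494-3p lies above the line with 0.63 at 0 Gy and 1.97 at 8 Gy.

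For some of the named miRNAs, the values of the other 2 drugs against the same 4 vehicle arrays stand beside those of CBLB502, with those drug arrays on another slide. miR-223-3p gave -0.51 with amifostine and -0.07 with nilestriol, beside -0.93 with CBLB502. For miR-10a-5p the values were -0.67, -0.03 and -0.89, and for miR-27a-3p -0.51, -0.42 and -0.74, in the same order. miR-494-3p gave 0.63 with amifostine and -0.04 with nilestriol beside 1.30 with CBLB502. Some lists had a lower median with another drug. The median of the progenitor list was -0.57 with amifostine, -0.41 with nilestriol and -0.31 with CBLB502. For the Toll-like receptor and NF-kB list the medians were -0.41, -0.53 and -0.29, and for the stromal and endothelial list -0.62, -0.52 and -0.30, in the same order. The differences between drugs were not tested.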

How the data were processed

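RNA of 6 bone marrow pools was hybridized with Cy3 label to Agilent mouse miRNA arrays. Per the file headers, the deposited spot intensity came from Agilent Feature Extraction (version 10.7.1.1), which subtracts background as a fitted surface. The deposited value table on a log2 scale, whose scaling is not given in the sources used here, served as an alternative.

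Processed intensity was averaged per probe without outlier spots, then over probes, scaled to each array's upper quartile (75th percentile) among 302 miRNAs found on all 6 arrays, raised to a floor (each array's 5th percentile of detected values, median taken across arrays; 7.34% of tested values lie there) and put on the log2 scale. A miRNA was detected where a probe total exceeded 3 times its error, as the scanner software marks it, and tested where detected on at least 3 arrays. Detection on vehicle arrays alone could meet this rule, and detection on the 2 CBLB502 arrays alone could not. The tested set can therefore lean toward miRNAs lower with CBLB502. A probe's GC content is the mean over a miRNA's probes. Where a group's values all lie at the floor, an "at least" fold is the other group's mean over that floor; with the low group at the floor it equals the fitted fold.

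Tests were two-sided in limma 3.58.1 (R 4.3.3, package data.table, version 1.17.8), with dose and drug as terms (3 residual degrees of freedom) or 4 group means (2). p-values were adjusted by Benjamini-Hochberg over all miRNAs tested. The code was tested on simulated data. Named were the 12 highest and 12 lowest differences that passed, the 4 smallest p of each dose contrast and of the difference between doses, all tested members of 5 lists (myeloid, miR-23/27/24, Toll-like receptor and NF-kB, progenitor, Hox), the extremes of 14 further lists, and miRNAs sharing a seed or lying within 10 kb of a named one. The comparison, the lists and their members were chosen with earlier results of these data known.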

Additional observations from a re-analysis of the deposited data

Results flagged for a closer look

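Dixon's ratio over the 4 vehicle arrays was set against its critical value in 28 checks. They covered the miRNAs with the 12 highest and 12 lowest differences that passed, and 4 measures of array quality. Chance flags about 1 in 20 such checks, and 2 were found. For miR-10a-5p the PBS i.g. array at 8 Gy stood apart at -0.56, with the other vehicle arrays at -0.79 to -0.76 (ratio 0.864). For miR-3061-5p the PBS i.g. array at 0 Gy stood at -5.12, while the other 3 lay at the floor of -5.25 and have no order among them (ratio 1).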

How the results depend on the processing

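All 107 miRNAs kept their direction in every alternative where they were tested, except 1 with the GC trend removed. The count of 107 fell to 0 without scaling, to 55 with normexp background, to 70 with the GC trend removed, to 13 with the authors' value table, to 45 on 10 arrays and to 32 with PBS i.p. alone, and leaving out 1 array gave 0 to 62. It was 0 with the slide row as a term, chosen after seeing the data. It stayed between 74 and 128 under 7 other settings. At 0 Gy the count of 0 became 20 with normexp background, 27 with an offset instead of a floor, 16 with detection on 1 array, 35 with the GC trend removed and 8 with the value table. At 8 Gy it became 49 with the all-miRNA percentile, 22 with quantile normalization, 30 with normexp, 56 with the offset, 3 with detection on all 6 arrays, 36 with detection on 1, 66 with the GC trend removed and 14 with the value table. The difference between doses had 4 with normexp, 8 with the offset, 15 with detection on 1 array, 4 with the GC trend removed and 7 with the value table. The cause of these moves was not tested. No paired analysis was possible because each group had 1 array and the labels number no replicates; the groups share dose, which is a term of the fit. Values near the floor are limited by signal over background, and 4 vehicle and 2 CBLB502 arrays limit every test.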

Other observations

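miR-5115 did not pass (1.31 ± 1.06, limma adjusted p 0.356), but 1 array stood far from the rest. Its log2 level was 0.38 on the CBLB502 array at 8 Gy, -4.13 on the CBLB502 array at 0 Gy and between -3.91 and -2.64 on the 4 vehicle arrays. Both of its probes gave a like difference, 1.26 and 1.33 over both doses. It was chosen after its values were seen.

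Detection itself separated the groups for few miRNAs. miR-193b-5p, miR-344i, miR-5104 and miR-718 were detected on both CBLB502 arrays and on no vehicle array, and were not tested because 2 of 6 arrays are too few. miR-126-5p and miR-467a-5p were detected on all 4 vehicle arrays and on neither CBLB502 array.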
